A study of Mus musculus with 4 samples.

Results

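The interleukin-1 family is described here through 10 genes, the cytokines Il1a, Il1b, Il18, Il33, Il1f6, Il1f8 and Il1f9, the receptor antagonists Il1rn and Il1f5, and the decoy receptor Il1r2. They were found by gene symbol in the deposited expression table, and all 10 had a row among its 17721 genes. The libraries came from back skin of C57BL/6 mice at postnatal day 63, with 2 from wild type animals and 2 from LDB2-/- animals. Skin had been treated with dispase, an enzyme that loosens the epidermis from the dermis, and the series describes the lysates as epidermal. How the LDB2-/- allele was made, and whether each library is 1 animal or a pool, is not given in the sources used here, so p-values measure the spread between these libraries, which may be technical. The comparison addresses what the loss of Ldb2, a partner of LIM-domain transcription factors, does to transcripts of adult skin.

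Interleukin-1 family cytokines are alarm signals of barrier tissues. Keratinocytes make several of them without prior stimulation, and the cytokines bind paired receptors that signal through MyD88, IRAK kinases and TRAF6 to NF-kappaB and MAP kinases. IL-1 alpha and IL-1 beta share the receptor Il1r1, IL-33 binds Il1rl1, IL-18 binds Il18r1, and the interleukin-36 cytokines, encoded by Il1f6 (Il36a), Il1f8 (Il36b) and Il1f9 (Il36g), bind Il1rl2. Il1rn and Il1f5 (IL-36Ra) encode antagonists that occupy Il1r1 and Il1rl2 without signalling, and Il1r2 binds IL-1 but carries no signalling domain.

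Total counts ran from 54095522 to 68436842 per library, so members with the fewest counts are measured less precisely than abundant ones. Ldb2 itself had 0 and 8 counts in the wild type libraries and none in either LDB2-/- library, too few to check the genotype labels. Keratinocyte markers were abundant in all 4 libraries, but their sums were lower in LDB2-/-. The 10 basal markers summed to 27252 and 24977 CPM (counts per 1e+06 counts of the library, scaled by TMM) in the wild type libraries against 11264 and 11409 in the LDB2-/- libraries. The 9 suprabasal markers with a row summed to 33115 and 28418 against 5637 and 5177. Of these 9, 7 were called lower, against 28.8% of all genes tested. Ivl was called higher (0.71 in log2 units) and Dsc1 was not called (0.29). Sebaceous gland markers fell as well, in 7 of 7 cases against 28.8% of all genes tested. Their median was at -2.23 in log2 units, and their sum went from 4844 and 6568 CPM to 1196 and 1064. Their part in the changes of the family was not tested. The 11 hair shaft and inner root sheath markers went the other way, from 178.8 and 655.9 to 107412 and 116542. Skeletal muscle markers summed to 4.72 and 3.57 CPM in the wild type libraries against 56.8 and 50.6 in the LDB2-/- libraries. Mast cell markers went from 6.57 and 8.48 to 40.3 and 40.1 CPM. Kit alone held most of that sum, at 5.61 and 7.77 CPM in wild type against 33.7 and 30.7 in LDB2-/-. Of the 4 mast cell markers tested, 3 passed the filter only through LDB2-/-. The part of these tissues in the changes of the family was not tested. In such bulk samples fewer cells of a type and less RNA per cell cannot be told apart.

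Of the 10 members, 9 fell and Il1b rose in the LDB2-/- libraries (edgeR quasi-likelihood test, adjusted p under 0.05 over 12400 genes tested). Of all genes tested 57.2% were called, 28.8% lower and 28.4% higher. The members' median log2 fold change was -2.15, against -0.01 over all genes tested. The falls reached at least 4-fold in 5 members, against 5.19% of genes tested, and at least 8-fold in 4, the 3 interleukin-36 agonists and Il33, against 1.63%. The genotypes did not overlap for any of the 10, which was so for 82.5% of all genes tested, and 41.7% were lower in LDB2-/- without overlap. With no expression filter the same count of 9 lower and 1 higher was obtained. Il1f6 passed the filter of 1 FPKM (fragments per kilobase and library size) only through the wild type libraries.

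**Figure D1:**
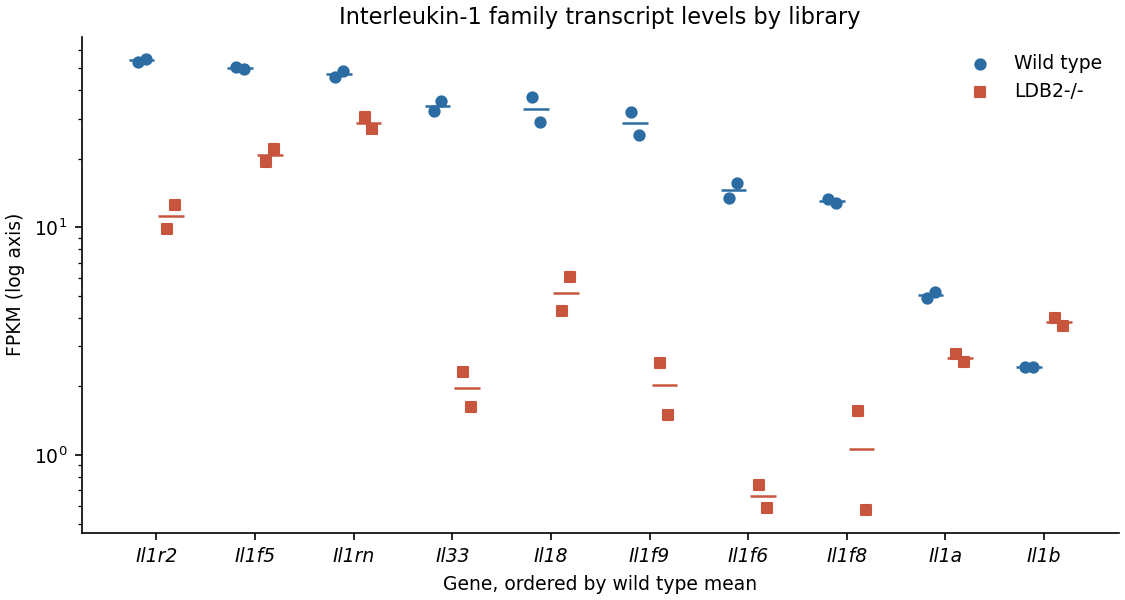
FPKM of each member on a log axis, 1 point per library (wild type circles, LDB2-/- squares), with a line at the mean of the 2 libraries. Only for Il1b do both LDB2-/- points lie above the wild type points, and the widest gaps are those of Il1f6, Il33, Il1f9 and Il1f8.

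Among wild type levels, which FPKM makes comparable between genes of different length, Il1r2 led at 54.0 ± 0.91 FPKM (SD, n = 2), followed by Il1f5 at 50.1 ± 0.90 and Il1rn at 47.2 ± 2.08. Il33, Il18 and Il1f9 came next, and their neighbours in this order overlapped between libraries. Il1b was the lowest at 2.45 FPKM. In LDB2-/- the order was led by Il1rn at 28.7 ± 2.33 and Il1f5 at 20.7 ± 1.87, and Il1f6 was the lowest at 0.66 ± 0.11, overlapping only Il1f8. Il1b moved from the last place to the fifth, above Il1a. Between genotypes FPKM carry no TMM scaling, and on log2(FPKM + 1) the median log2 fold change of all genes tested was -0.29.

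The interleukin-36 agonists fell most, together with Il33. Il1f6 had 13.4 and 15.6 FPKM in the wild type libraries against 0.74 and 0.58 in the LDB2-/- libraries, from 809 and 806 counts against 36 and 37. It fell by 4.12 in log2 units (adjusted p = 0.00021, SE 0.27), or 17.3-fold, and only 62 of the genes tested had a lower log2 fold change. Il1f9 had 32.1 and 25.5 FPKM in the wild type libraries against 2.54 and 1.5 in the LDB2-/- libraries, a log2 fold change of -3.53 (adjusted p = 0.00037, SE 0.28). In both genes the 2 LDB2-/- libraries lay far under both wild type libraries. Il1f8 had 13.3 and 12.7 FPKM in wild type against 1.56 and 0.57, from 68 and 32 counts, so its LDB2-/- libraries differed from each other more than those of Il1f6 did. Its log2 fold change was -3.31 (adjusted p = 0.0022, SE 0.46), with -4.11 without LDB2-/- replicate 1 and -2.77 without LDB2-/- replicate 2.

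Il33, an alarmin held in the nucleus until cells are damaged, fell about as far. Its levels were 32.4 and 35.9 FPKM in the wild type libraries against 2.31 and 1.63 in the LDB2-/- libraries, with 5638 and 5345 counts against 325 and 291. The log2 fold change was -3.80 (adjusted p = 0.00012, SE 0.19), the smallest SE among the 4 genes that fell at least 8-fold. Fibroblasts and endothelial cells also make IL-33, and their part in the change of Il33 was not tested. Of 6 tested fibroblast markers 5 rose, against 28.4% of all genes tested. The 8 listed fibroblast markers summed to 117.2 and 86.1 CPM in the wild type libraries against 244.1 and 306.1 in the LDB2-/- libraries. All 5 tested endothelial markers rose, but each passed the filter only through its LDB2-/- libraries, which leaves little room for a fall. With no expression filter 7 of the 8 listed were called higher and 0 lower, against 3488 higher and 3741 lower of 17721 genes. The defining marker Kdr went the other way at low counts, from 10 and 5 in wild type to 0 in both LDB2-/- libraries. The 8 listed summed to 4.95 and 7.58 CPM in the wild type libraries against 56.9 and 62.0 in the LDB2-/- libraries.

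The 250 bases before the annotated start are shown for the genes that fell at least 8-fold and have an entry in the RefSeq promoter table (GRCm38.p6, the mm10 build), and for Il1b, the member that rose. Capitals mark matches to TATAAA, the TATA box, or to TGANTCA, the AP-1 site, on either strand.
Il1f8 (chr2:24152922-24153171, plus strand): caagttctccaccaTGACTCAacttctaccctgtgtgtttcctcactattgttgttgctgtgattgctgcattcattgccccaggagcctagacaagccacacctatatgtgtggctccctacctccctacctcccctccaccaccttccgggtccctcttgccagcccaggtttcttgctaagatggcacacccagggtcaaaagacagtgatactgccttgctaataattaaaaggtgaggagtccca
Il1f9 (chr2:24186226-24186475, plus strand): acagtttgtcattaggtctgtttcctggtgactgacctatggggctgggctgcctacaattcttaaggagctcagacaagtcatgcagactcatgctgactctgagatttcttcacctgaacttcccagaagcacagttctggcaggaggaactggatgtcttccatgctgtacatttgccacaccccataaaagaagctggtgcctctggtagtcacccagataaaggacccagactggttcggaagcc
Il33 start 1 (chr19:29924863-29925112, plus strand): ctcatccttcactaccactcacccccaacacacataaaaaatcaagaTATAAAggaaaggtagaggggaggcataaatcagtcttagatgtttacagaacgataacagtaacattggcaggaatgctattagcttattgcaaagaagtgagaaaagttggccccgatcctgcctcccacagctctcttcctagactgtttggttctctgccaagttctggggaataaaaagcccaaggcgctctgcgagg
Il33 start 2 (chr19:29945540-29945789, plus strand): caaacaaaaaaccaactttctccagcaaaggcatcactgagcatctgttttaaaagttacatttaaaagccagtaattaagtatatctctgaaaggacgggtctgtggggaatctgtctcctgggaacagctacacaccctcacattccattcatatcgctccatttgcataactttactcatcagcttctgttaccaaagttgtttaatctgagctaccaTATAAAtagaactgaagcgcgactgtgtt
Il1b (chr2:129371140-129371389, minus strand): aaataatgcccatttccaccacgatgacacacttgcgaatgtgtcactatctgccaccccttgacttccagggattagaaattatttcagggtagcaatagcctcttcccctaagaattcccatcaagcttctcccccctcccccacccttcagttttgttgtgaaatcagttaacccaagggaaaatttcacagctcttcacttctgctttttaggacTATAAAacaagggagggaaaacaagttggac
Il33 has 2 annotated start sites, and the gene-level counts do not separate them. TATAAA was found 29 bases before its second start and 31 bases before the start of Il1b, the usual distance of a TATA box, and 203 bases before the first Il33 start. TGANTCA occurred 236 bases before the Il1f8 start. In the 250 bases before the start of Il1f9 neither motif was found. Over all 32851 promoters of the table and the same window, 12.4% held TATAAA and 6.75% held TGANTCA. Of 13 start sites in 9 members, 5 held TATAAA and 3 held TGANTCA, the last being those of Il1a, Il1f8 and one of Il1rn. The kappaB consensus, the site of NF-kappaB, was found at 0 of the 13, against 7.25% of all promoters.

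IL-18 is made as an inactive precursor that caspase-1 cleaves. Il18 had 37.3 and 29.0 FPKM in the wild type libraries against 4.30 and 6.03 in the LDB2-/- libraries. It fell 5.10-fold, a log2 fold change of -2.35 (adjusted p = 0.00115, SE 0.27), and both LDB2-/- libraries lay far under the lower wild type one.

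The 2 classical interleukin-1 cytokines moved in opposite directions. Il1a, whose product keratinocytes store and release on injury, had 4.89 and 5.20 FPKM in the wild type libraries against 2.77 and 2.55 in the LDB2-/- libraries, and fell by 0.60 in log2 units (adjusted p = 0.0465, SE 0.20). That call sat at the threshold and was lost when any 1 of the 4 libraries was left out, with adjusted p from 0.103 to 0.165. Il1b, whose product needs cleavage by caspase-1 and is mainly known from myeloid cells, had 2.45 FPKM in each wild type library and 4.0 and 3.67 in LDB2-/-. It rose by 0.96 in log2 units (adjusted p = 0.0170, SE 0.24), from 226 and 193 counts to 297 and 345. The direction held in all 15 alternatives that gave Il1b a value, while the call was lost without wild type replicate 1 (adjusted p = 0.0627), without wild type replicate 2 (adjusted p = 0.0726) and with the library total alone (adjusted p = 0.0621). An antisense transcript, Il1bos, overlaps Il1b and had 74 and 97 counts in the wild type libraries against 5 and 29 in the LDB2-/- libraries. Whether counting used strand is not stated, so reads of the pair cannot be told apart.

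Markers of cells that make IL-1 beta moved with Il1b in part. Of all genes tested 28.4% were called higher and 28.8% lower. Of 7 tested macrophage and monocyte markers 5 rose and 2 fell, the defining marker Adgre1 by 0.96 in log2 units and Csf1r by 0.95. The other defining markers, C1qa and C1qb, rose by 1.56 and 2.81. The 9 listed summed to 97.9 and 104.3 CPM in the wild type libraries against 116.6 and 156.3 in the LDB2-/- libraries. Of 4 tested neutrophil markers 3 rose, S100a8, S100a9 and Retnlg, the last tested only through LDB2-/-. Cxcr2 was not called, at -0.58 in log2 units. The 8 neutrophil markers summed to 22.5 and 13.8 CPM in the wild type libraries against 49.8 and 54.3 in the LDB2-/- libraries. S100a8 and S100a9 held most of it, at 6.14 and 9.90 CPM in wild type replicate 1 and 24.2 and 17.7 in LDB2-/- replicate 1. The defining marker Ly6g was at 0 counts in both wild type libraries and at 13 and 0 in LDB2-/-. Langerhans cell markers fell in 4 of 7 cases and rose in 1, and the defining marker Cd207, which encodes langerin, was at 44.2 and 45.5 CPM against 16.4 and 12.4. The part of these cells in the rise of Il1b was not tested.

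The antagonists and the decoy receptor fell less than the interleukin-36 agonists. Il1rn, the IL-1 receptor antagonist, had 45.7 and 48.6 FPKM in the wild type libraries against 30.4 and 27.1 in the LDB2-/- libraries, the smallest change of all members (log2 fold change -0.40, SE 0.10, adjusted p = 0.0206). Its call was lost without wild type replicate 2 (adjusted p = 0.0549), without LDB2-/- replicate 1 (adjusted p = 0.0572) and without LDB2-/- replicate 2 (adjusted p = 0.0990), with the direction kept. Secreted and intracellular Il1rn forms start at different sites and share 1 row, so they cannot be separated here. Il1f5, the interleukin-36 receptor antagonist, had 50.8 and 49.5 FPKM in the wild type libraries against 19.4 and 22.0 in the LDB2-/- libraries, and fell by 0.96 in log2 units (adjusted p = 0.0020, SE 0.13). Il1r2 had 53.4 and 54.7 FPKM in the wild type libraries against 9.87 and 12.5 in the LDB2-/- libraries, and fell by 1.94 (adjusted p = 0.00051, SE 0.17). In all 3 the LDB2-/- libraries lay under both wild type libraries.

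**Figure D2:**
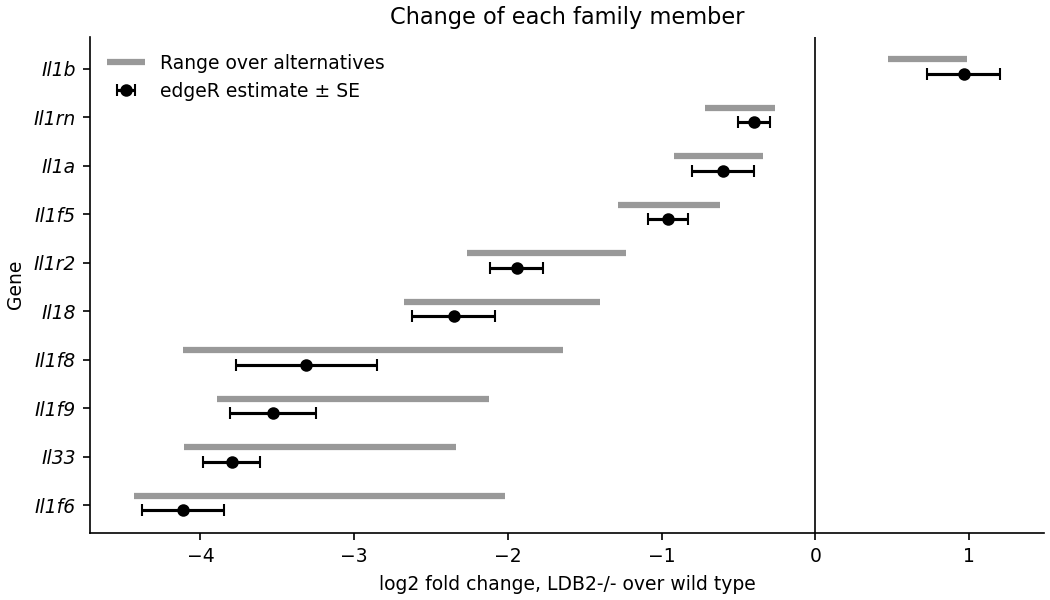
Log2 fold change of LDB2-/- over wild type for each member, as the edgeR estimate with its standard error (black) and the range over the alternative settings (grey). No range crosses 0; Il1b alone lies above it.

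The balance between agonists and antagonists was compared as ratios within a library, which do not depend on how libraries are scaled to each other. The 3 interleukin-36 agonists summed to 58.8 and 53.9 FPKM in the wild type libraries against 4.84 and 2.66 in the LDB2-/- libraries. Against Il1f5 this was a ratio of 1.16 and 1.09 in wild type and of 0.249 and 0.121 in LDB2-/-, so the agonist transcripts went from about equal to the antagonist to well under it. The ratio of Il1b to Il1a was 0.50 and 0.471 in the wild type libraries against 1.45 and 1.44 in the LDB2-/- libraries, reversing which of the pair was more abundant. In CPM, which TMM scales, Il1a was at 8.91 and 9.27 in wild type against 6.06 and 5.92 in LDB2-/-. Il1b was at 3.05 and 2.99 CPM against 5.98 and 5.80. Their sum in FPKM, which carry no TMM scaling, was 7.34 and 7.64 against 6.78 and 6.22. Il1rn stood at 6.23 and 6.37 times that sum in wild type and at 4.48 and 4.35 times in LDB2-/-, and Il1r2 at 7.27 and 7.15 times against 1.46 and 2.02 times. The genotypes did not overlap in any of these ratios, but the share over ratios of other genes was not computed. Of single genes tested, 82.5% did not overlap. With 2 libraries per genotype an exact two-sided permutation test cannot give a p under 0.333, so the ratios are given as values.

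**Figure D3:**
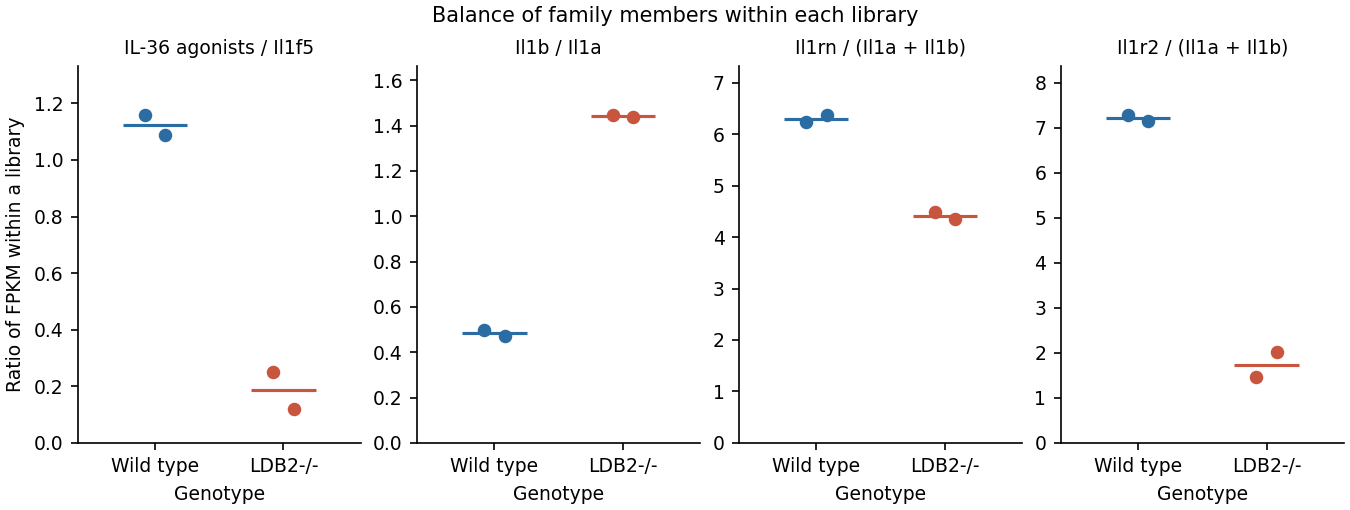
Ratios of FPKM within a library for 4 pairs of member groups, 1 point per library with a line at the mean, from an axis starting at 0. The interleukin-36 agonist to Il1f5 ratio lies at 1.09 to 1.16 in wild type and 0.121 to 0.249 in LDB2-/-, and the Il1b to Il1a ratio is the 1 of the 4 that is higher in LDB2-/-.

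Il1rn and Il1f5 together made up 33.8% and 35.1% of the summed FPKM of the 10 members in the wild type libraries, and 63.9% and 62.8% in the LDB2-/- libraries. The sum itself was 285.7 and 279.3 FPKM against 77.9 and 78.2, without TMM scaling. In TMM-scaled CPM the 10 members summed to 438.5 and 429.8 in wild type against 164.2 and 169.5 in LDB2-/-. Il33 went from 11.3% and 12.9% of the FPKM sum to 2.97% and 2.08%, and Il1b from 0.856% and 0.876% to 5.14% and 4.69%.

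Because the summed keratinocyte markers were lower in LDB2-/-, member levels were also set against them. Per 1000 CPM of the basal list, 6 of the 10 members were lower in LDB2-/- without overlap and 4 were higher. The share over all genes was not computed on this measure. Krt5 and Krt14 held most of the basal sum, at 11750 and 8665 of 27252 CPM in wild type replicate 1. They fell by 1.05 and 0.90 in log2 units, less than the median of -1.85 over the 10 basal markers. Il33 was at 2.79 and 3.31 CPM per 1000 CPM of basal markers in the wild type libraries against 0.581 and 0.429 in the LDB2-/- libraries, and Il1f6 at 0.400 and 0.499 against 0.0644 and 0.0545. Il1rn was at 3.81 and 4.33 against 7.35 and 6.86, Il1a at 0.327 and 0.371 against 0.538 and 0.519, and Il1f5 at 2.99 and 3.12 against 3.30 and 3.92, so these 3 turned from lower to higher on this measure. Il1b was higher on it as before. The suprabasal sum fell further. Krt10 led it, at 14908 of 33115 CPM in wild type replicate 1, and fell by 3.03 in log2 units, more than the list median of -2.33. Per 1000 CPM of the suprabasal list, Il33, Il1f6, Il1f8 and Il1f9 were still lower in LDB2-/- without overlap, Il18 overlapped, and the other 5 were higher. Il33 was then at 2.30 and 2.91 in the wild type libraries against 1.16 and 0.945 in the LDB2-/- libraries. How much of each change comes with the keratinocyte share was not tested beyond these ratios.

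Of the members, 5 lie in 1 cluster on chromosome 2 (mm10), in the order Il1f8 (24153172 to 24160103), Il1f9 (24186476 to 24193567), Il1f6 (24215417 to 24225701), Il1f5 (24276954 to 24282432) and Il1rn (24336860 to 24351491). The falls were deepest in the first 3, and Il1f5 and Il1rn followed with smaller ones. Between Il1f5 and Il1rn lies Il1f10 (24291196 to 24294165), a family gene encoding IL-38 that was not among the chosen members and is named after its values were seen. Il1f10 had 6.40 and 4.95 FPKM in the wild type libraries against 17.2 and 18.1 in the LDB2-/- libraries, and rose by 1.95 in log2 units (adjusted p = 0.0017, SE 0.25). It thus rose between 2 neighbours that fell. The nearest tested genes outside the cluster were Hnmt, which encodes histamine N-methyltransferase and fell by 4.05 (adjusted p = 0.00081, SE 0.42), and Psd4, at -0.18 (adjusted p = 0.242). Tbpl2, which lies between Hnmt and Il1f8, was not analysed here.

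Il1a (129299609 to 129310186) and Il1b (129364569 to 129371164) lie elsewhere on chromosome 2, next to each other and with opposite changes. Beside Il1a lies Ckap2l, a mitotic spindle gene, with a log2 fold change of -0.50 (adjusted p = 0.0374, and adjusted p = 0.172 without wild type replicate 2). Il1r2 (chromosome 1, 40084692 to 40125230) opens a row of receptor genes described next, while Il18 (chromosome 9, 50554700 to 50581841) and Il33 (chromosome 19, 29925113 to 29960718) lie apart from other members.

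**Figure D4:**
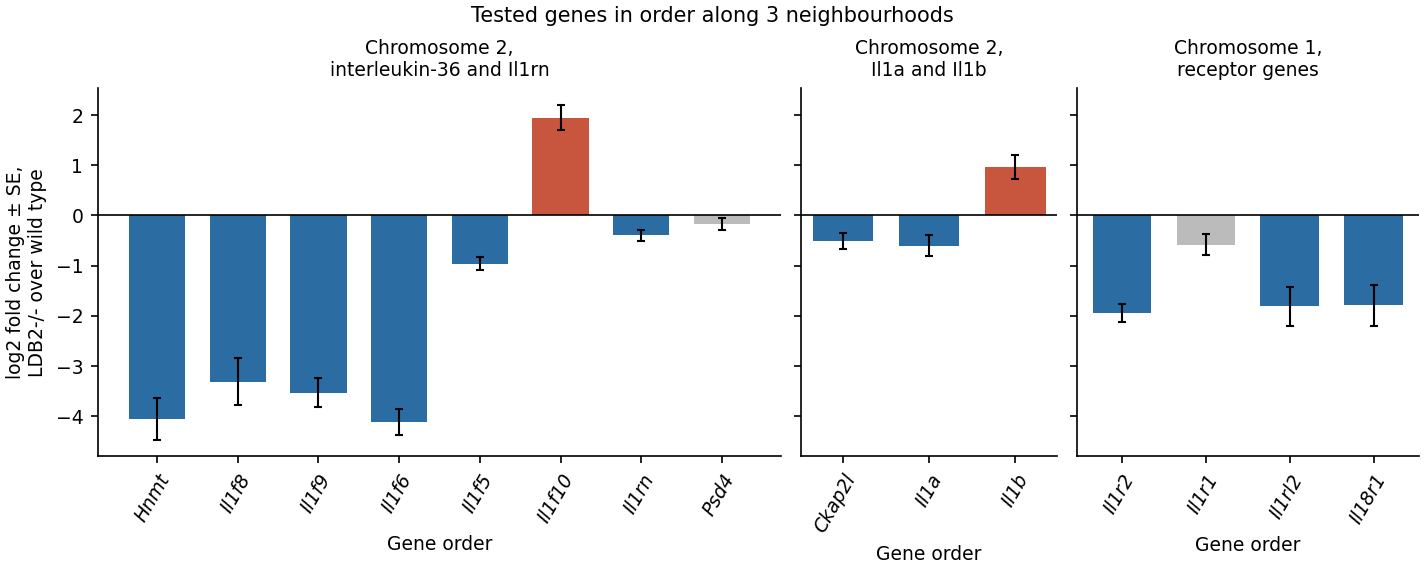
Log2 fold change with its standard error for tested protein-coding genes in their order along 3 neighbourhoods, at equal spacing (blue called lower, red called higher, grey not called). In the first panel Il1f8, Il1f9 and Il1f6 lie between -3.31 and -4.12, and Il1f10 at 1.95 stands between Il1f5 and Il1rn.

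Of 8 receptor and binding protein genes with a row, 6 were tested. Among the 6, 3 fell and 0 rose, against 28.8% lower and 28.4% higher over all genes tested. The median log2 fold change of the 6 was -1.12. Il1rl2, the interleukin-36 receptor, had 2448 and 2947 counts in the wild type libraries against 763 and 422 in the LDB2-/- libraries and fell by 1.81 (adjusted p = 0.0099, SE 0.38), so receptor and agonists of this branch were both lower. Its log2 fold change was -2.46 without LDB2-/- replicate 1 and -1.35 without LDB2-/- replicate 2. Il1rap, the co-receptor shared by the IL-1, IL-33 and interleukin-36 receptors, fell by 1.67 (adjusted p = 0.0028, SE 0.25), from 26.2 ± 2.17 to 8.28 ± 2.46 CPM. Il18r1, the IL-18 receptor chain that T cells also carry, fell by 1.79 (adjusted p = 0.0119, SE 0.40). Its LDB2-/- libraries had a wide spread, 148 against 409 counts. Il18r1 fell by 2.52 without LDB2-/- replicate 2 and by 1.31 without LDB2-/- replicate 1. T cell markers moved with it: 5 of 7 tested fell and 0 rose, and they summed to 307.2 and 349.4 CPM in the wild type libraries against 112.5 and 138.3 in the LDB2-/- libraries. Their part in the result was not tested.

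Il1r1, the signalling IL-1 receptor, had 9.54 and 11.4 FPKM in the wild type libraries against 6.88 and 4.38 in the LDB2-/- libraries. Its log2 fold change was -0.58 (adjusted p = 0.0590), not called here and called lower in 10 of 16 alternatives, among them those without wild type replicate 1 (adjusted p = 0.0389) and without LDB2-/- replicate 1 (adjusted p = 0.0051). The ratio of Il1r2 to Il1r1 FPKM was 5.59 and 4.80 in the wild type libraries against 1.43 and 2.87 in the LDB2-/- libraries, so the decoy stood above the signalling receptor in each library but by less in LDB2-/-. Sigirr, an inhibitory receptor, was at -0.27 (adjusted p = 0.370), and Il18bp, which captures IL-18, at 0.76 (adjusted p = 0.0921). The IL-33 receptor gene Il1rl1, with 32 and 32 counts in the wild type libraries against 15 and 19 in the LDB2-/- libraries, and Il18rap, with 51 and 116 against 34 and 0, were too low to test.

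Genes that process family members or release them from cells had 22 rows, of which 16 were tested. Of these, 10 fell and 1 rose, against 28.8% lower and 28.4% higher over all genes tested, with a median of -0.77, and with no filter 11 of 22 fell and 1 rose. Casp4, which encodes the inflammatory caspase-11, fell by 3.24 (adjusted p = 0.00074, SE 0.32), from 29.4 ± 2.98 to 3.13 ± 1.29 CPM. Aim2, a DNA sensor of the inflammasome, fell by 1.85 (adjusted p = 0.0036, SE 0.29). Gasdermins, which form membrane pores, split by gene. Gsdmc2 fell by 2.43 (adjusted p = 0.00016), Gsdmc3 by 1.88 (adjusted p = 0.0076) and Gsdma2 by 3.30 (adjusted p = 0.0025), while Gsdma rose by 2.56 (adjusted p = 0.00017, SE 0.15), from 131.1 ± 16.6 to 772.5 ± 43.1 CPM. Gasdermin genes of 1 subfamily are close copies, so reads may be shared among them.

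All 29 signal transduction genes were tested, with a median of -0.76. Among them 19 fell and 2 rose, against 28.8% lower and 28.4% higher over all genes tested. Ranked by depth of fall, the first 6 were the subunit gene Rel and 5 regulators of the pathway, with Relb next at -1.60. The subunit gene Rela was not called (0.11), and NF-kappaB activity was not tested. Rel, which encodes the subunit c-Rel, fell by 3.83 (adjusted p = 0.00062, SE 0.36), with 650 and 849 counts in the wild type libraries against 46 and 37 in the LDB2-/- libraries. Nfkbiz, which encodes a nuclear cofactor of NF-kappaB downstream of interleukin-36, fell by 2.71 (SE 0.24), Tnfaip3, the deubiquitinase A20, by 2.55 (SE 0.19), the kinase Irak2 by 2.35 (SE 0.16), Nfkbia, the inhibitor I-kappaB alpha, by 2.22 (SE 0.15) and the RNase Zc3h12a by 1.61 (SE 0.10). Nfkbia was at 378.2 ± 2.0 CPM in wild type and 81.4 ± 12.8 in LDB2-/-.

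The other 13 signal transduction genes that fell had log2 fold changes from -1.60 to -0.31, and the 8 that were not called lay between -0.60 and 0.11. The 2 that rose were Nfkbib (0.52, adjusted p = 0.0254) and Tab1 (0.51, adjusted p = 0.0318). Both calls were lost with the library total alone (adjusted p = 0.245 and 0.362) and when some single libraries were left out, with adjusted p up to 0.154 for Nfkbib without LDB2-/- replicate 2 and up to 0.125 for Tab1 without LDB2-/- replicate 1.

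Of 24 genes known to be induced by IL-1 or interleukin-36, only 12 were tested, with a median of -1.43. Among the 12, 8 fell and 3 rose, against 28.8% lower and 28.4% higher over all genes tested. Of the 12, 3 were tested only through wild type and 1 only through LDB2-/-, and with no filter 7 of 24 fell and 3 rose. Ccl20, a chemokine that draws Langerhans cell precursors and T cells, had 279 and 82 counts in the wild type libraries against 0 and 0 in the LDB2-/- libraries, at least 94.6-fold lower against 3 counts over the LDB2-/- group. The bound ran from 43.0 without LDB2-/- replicate 2, and 46.2 without wild type replicate 1, to 136.9 without wild type replicate 2. The neutrophil chemokine Cxcl1 had 342 and 211 counts against 17 and 0, a log2 fold change of -4.59 (adjusted p = 0.0125, SE 1.04, and adjusted p = 0.0867 with DESeq2). Without LDB2-/- replicate 2 this was -3.52, and without LDB2-/- replicate 1, which leaves a count of 0, Cxcl1 was at least 79.0-fold lower. The monocyte chemokine Ccl2 fell by 2.58 (adjusted p = 0.0015, SE 0.32), and Ptgs2, the inducible cyclooxygenase, by 2.03 (adjusted p = 0.0069, SE 0.39).

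The 3 that rose were the acute phase gene Saa3 and the calprotectin subunits S100a8 and S100a9. Saa3 was nearly absent from wild type, with 0 and 7 counts in the wild type libraries against 147 and 202 in the LDB2-/- libraries (log2 fold change 5.90, SE 0.89, adjusted p = 0.0029). Without wild type replicate 1 this was 4.85, and without wild type replicate 2, which leaves a count of 0, Saa3 was at least 79.0-fold higher. S100a8 rose by 2.35 (adjusted p = 0.0019, SE 0.31), from 4.75 ± 1.95 to 24.3 ± 0.06 CPM, and S100a9 by 1.32 (adjusted p = 0.0137, SE 0.31). Both S100 genes are also on the neutrophil list described above, and the part of neutrophils in their rise was not tested.

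**Figure D5:**
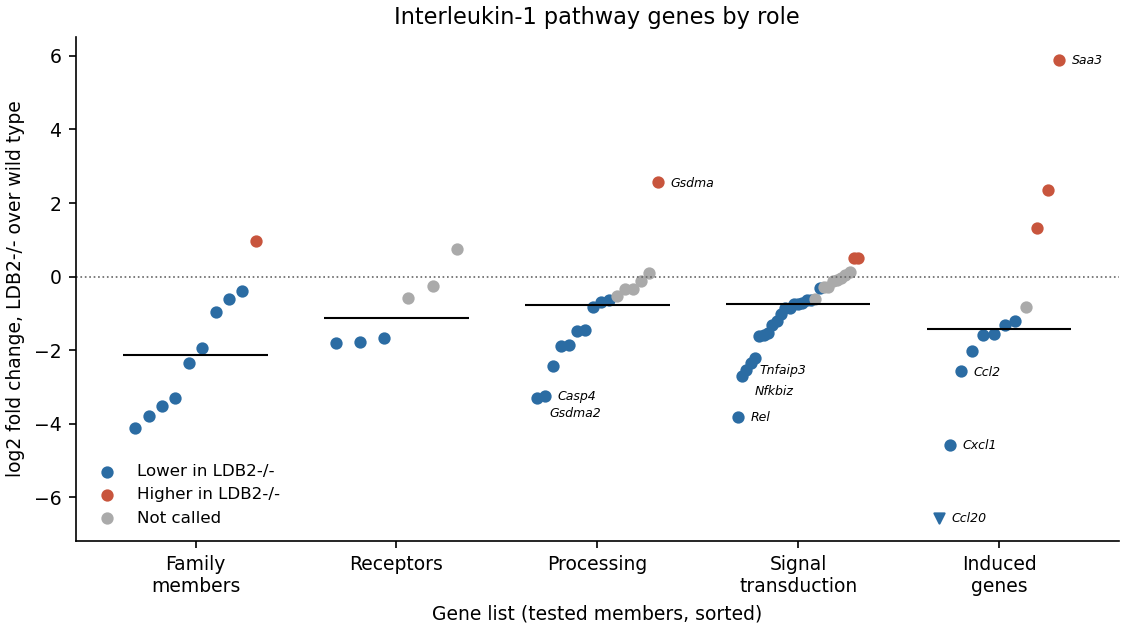
Log2 fold change of every tested gene of the family and of the 4 pathway lists, 1 point per gene sorted within its list, with a line at the list median (blue lower, red higher, grey not called, triangle a bound for Ccl20). The family median of -2.15 lies under the medians of the 4 pathway lists, which run from -1.43 to -0.76.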

How the data were processed

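RNA-seq libraries from 2 wild type and 2 LDB2-/- samples were analysed from 1 deposited table. Named in the submitters' processing notes, with no settings, are build mm10, HISAT2 2.1.0 and StringTie 1.3.4d. The authors deposited raw read counts per gene and FPKM, per the file headers, and a set of normalized log2 values, made by the authors in a way that is not stated. The deposited comparison of the authors gives a signed fold change, used here as a score, and a Benjamini-Hochberg adjusted p-value. In the authors' deposited table all 10 members were under 0.05, 9 lower and 1 higher, with adjusted p up to 0.0446.

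Tested were the 12400 genes that reached 1 FPKM in 2 or more libraries. The counts went into edgeR's quasi-likelihood test, two-sided, with TMM factors from 0.872 to 1.128 and Benjamini-Hochberg adjustment over all of them at 0.05. Standard errors are those implied by the F statistic. CPM are counts per 1e+06 of the library's total over tested genes times its TMM factor. In simulated data for this comparison 200 of 12400 genes were changed. The test recovered 11.9% of genes changed 1.5-fold, 62.7% of those changed 2-fold and 98.5% of those changed 4-fold, with 8 false calls. In the data themselves 57.2% of genes were called, so these rates do not describe the comparison directly. Coordinates and promoters are RefSeq's (GRCm38.p6), matched by gene ID for all 10 members, 9 of which had a promoter.

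The members and lists were chosen with earlier results of these data known. Named were all members and receptors, the 6 called genes with the largest change in each other pathway list and called genes that went against their list. The alternatives are listed in the closing section, and 2 of the 16 were added after seeing the data. Software used was edgeR 4.0.16, limma 3.58.1 and DESeq2 1.42.0 in R 4.3.3, and pandas 2.3.3 and matplotlib 3.10.9 in Python 3.11.15.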

Additional observations from a re-analysis of the deposited data

How the results depend on the processing

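The fits were repeated with DESeq2's size factors, the library total alone, DESeq2, limma on log2(FPKM + 1), log2(FPKM + 0.1) and the authors' normalized log2 values, no expression filter, a mean FPKM of 5 or more, a robust fit, the replicate number as a block and each library left out, and, chosen after seeing the data, scaling without hair genes and crossed pairs as a block. No named gene reversed direction in any of them, and of the 641 fitted values of single genes 597 kept their side of the threshold, 31 lost a call and 13 gained one. Il18, Il33, Il1f5, Il1f6, Il1f8, Il1f9 and Il1r2 stayed called in all 16. The count of members called ran from 7 to 8 when 1 library was left out, of pathway members from 40 to 43, and of all genes from 5669 to 6702. A mean FPKM of 5 or more left Il1a and Il1b untested. The library total alone shifted the median of all genes from -0.01 to -0.33 in log2 fold change, with 2248 genes higher and 5096 lower against 3521 and 3576. With limma on log2(FPKM + 1) these were 2393 and 5350.

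Nothing in the labels says that equal replicate numbers mark a shared litter or day. With the replicate number as a block, 8 of the 10 members were called (Il1a, adjusted p = 0.113, and Il1rn, adjusted p = 0.0846, were not) and 6092 genes in all. Differences between the 2 replicates correlated at -0.21 between genotypes, and with crossed pairs 9 members and 7269 genes were called. Low counts limit Il1f6 and Il1f8 in LDB2-/-.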
